A study of Mus musculus with 6 samples.

Results

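The stem cell heptad is a set of 7 transcription factors, Tal1, Lyl1, Lmo2, Gata2, Runx1, Fli1 and Erg, described here together with Cbfb and Ldb1, binding partners of Runx1 and Lmo2. The 9 genes were chosen by name, out of 18193 genes with at least 1 probe set assigned to a single symbol, and all 9 were measured. They were covered by 17 of 45037 probe sets, and each gene was represented by its brightest probe set over the 6 arrays. Expression was measured on Affymetrix Mouse Genome 430 2.0 arrays in LKS+ cells, the lineage-negative marrow cells with high c-Kit and with Sca-1 on their surface, which hold the blood stem cells and multipotent progenitors. There were 3 arrays from Apcmin mice and 3 from wild-type (WT) mice. In Apcmin mice the Min mutation truncates Apc, a scaffold of the complex that marks beta-catenin for degradation, in the germline and so not only in blood. WT mice carry the normal gene. The labels name no age, sex or strain. They count at least 20000 sorted cells per mouse at a purity above 90%. No animal is named, and each array was taken as 1 mouse. The p-values measure the spread between these arrays, after the variance of each probe set was drawn towards that of all probe sets.

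In blood stem and progenitor cells the heptad factors bind many regulatory elements in combination, their own genes' elements included. Tal1 and Lyl1 are basic helix-loop-helix proteins that bind E-boxes as dimers with E proteins. Lmo2 does not bind DNA itself and joins Tal1 or Lyl1 to Gata2 and to Ldb1, which dimerizes and can link distant elements. Runx1 binds DNA through its Runt domain, more tightly with Cbfb, and Fli1 and Erg are closely related ETS factors. The comparison of genotypes asks whether the transcripts of this network differ between Apcmin and WT cells.

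No difference between Apcmin and WT in any of the 9 genes passed the test at an adjusted p of 0.05. The log2 differences, Apcmin minus WT, ran from -0.20 for Ldb1 to 0.27 for Fli1, with the mean higher in Apcmin for 6 genes and lower for 3. All 9 confidence intervals lay within a 2-fold difference in either direction, as did 94% of the 8658 genes whose log2 intensity averaged 6 or more, called bright genes below. No member had an adjusted p below 0.954 or an unadjusted p under 0.05 (limma, adjusted by Benjamini-Hochberg over 45037 probe sets). Among all probe sets 0% passed at an adjusted p of 0.05, while an unadjusted p under 0.05 was found in 3.81% of probe sets and 3.11% of genes. In 0 of the 9 genes did the Apcmin arrays lie wholly on one side of the WT arrays, against 7.73% of all genes.

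The members were looked up among the annotated promoter windows of RefSeq (build GRCm38.p6), which run from 250 bases before to 50 after a transcript start. Windows were found for 7 of the 9 genes, 14 in all, and 5 genes had more than 1. All 7 windows of Gata2, Runx1 and Erg are shown, the genes whose probe sets had differences of opposite sign. Capitals mark matches, on either strand, to any of 4 motifs. The E-box was searched as CAGNTG and the GATA motif as AGATAA. For ETS factors GGAAG was searched, which is longer than their GGAA core, so a window without an ETS match can still hold that core. The site of RUNX proteins was searched as TGTGGT. No matches of different motifs overlapped.
Gata2, first window, chr6:88193641-88193940, plus strand: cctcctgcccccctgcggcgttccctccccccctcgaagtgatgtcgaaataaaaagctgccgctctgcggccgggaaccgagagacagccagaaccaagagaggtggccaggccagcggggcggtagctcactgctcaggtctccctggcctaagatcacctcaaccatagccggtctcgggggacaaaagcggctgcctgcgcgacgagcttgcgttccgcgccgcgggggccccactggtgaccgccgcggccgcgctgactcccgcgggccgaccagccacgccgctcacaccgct
Gata2, second window, chr6:88198414-88198713, plus strand: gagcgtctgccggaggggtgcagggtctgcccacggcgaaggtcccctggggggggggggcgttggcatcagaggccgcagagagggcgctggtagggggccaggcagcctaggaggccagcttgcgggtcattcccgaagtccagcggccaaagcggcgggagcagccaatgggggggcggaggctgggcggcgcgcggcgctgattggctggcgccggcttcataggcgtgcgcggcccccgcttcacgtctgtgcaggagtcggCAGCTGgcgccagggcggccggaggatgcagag
Runx1, upstream start, chr16:92826025-92826324, minus strand: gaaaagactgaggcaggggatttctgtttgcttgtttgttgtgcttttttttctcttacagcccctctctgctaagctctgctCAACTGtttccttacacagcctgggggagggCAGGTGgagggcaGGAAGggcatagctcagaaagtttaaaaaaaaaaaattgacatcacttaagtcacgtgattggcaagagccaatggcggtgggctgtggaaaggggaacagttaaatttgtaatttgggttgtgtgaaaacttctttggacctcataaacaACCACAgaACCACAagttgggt
Runx1, downstream start, chr16:92697280-92697579, minus strand: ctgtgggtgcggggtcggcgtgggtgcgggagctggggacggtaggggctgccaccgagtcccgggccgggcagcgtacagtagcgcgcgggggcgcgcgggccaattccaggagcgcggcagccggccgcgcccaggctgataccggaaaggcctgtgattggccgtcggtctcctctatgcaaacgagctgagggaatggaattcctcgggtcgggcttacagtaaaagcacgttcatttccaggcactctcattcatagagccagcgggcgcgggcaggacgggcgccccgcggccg
Erg, upstream start, chr16:95586544-95586843, minus strand: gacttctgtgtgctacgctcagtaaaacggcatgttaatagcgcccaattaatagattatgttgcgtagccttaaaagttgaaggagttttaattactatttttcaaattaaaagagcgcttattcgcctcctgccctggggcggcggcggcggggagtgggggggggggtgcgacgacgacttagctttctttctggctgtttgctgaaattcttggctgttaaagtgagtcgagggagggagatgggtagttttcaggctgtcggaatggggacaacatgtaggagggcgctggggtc
Erg, middle start, chr16:95530316-95530615, minus strand: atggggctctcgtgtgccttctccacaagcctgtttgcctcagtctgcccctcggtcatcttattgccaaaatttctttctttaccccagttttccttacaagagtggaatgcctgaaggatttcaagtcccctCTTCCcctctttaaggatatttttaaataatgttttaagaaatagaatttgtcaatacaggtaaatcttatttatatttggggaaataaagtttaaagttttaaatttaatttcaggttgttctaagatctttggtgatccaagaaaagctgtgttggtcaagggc
Erg, downstream start, chr16:95459299-95459598, minus strand: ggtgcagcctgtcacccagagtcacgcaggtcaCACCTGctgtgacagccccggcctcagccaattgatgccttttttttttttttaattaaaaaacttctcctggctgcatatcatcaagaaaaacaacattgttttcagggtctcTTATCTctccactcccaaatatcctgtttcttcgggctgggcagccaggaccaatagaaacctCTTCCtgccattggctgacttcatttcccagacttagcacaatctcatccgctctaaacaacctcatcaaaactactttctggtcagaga

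The upstream Runx1 window held 2 E-box, 1 ETS and 2 RUNX matches, and the downstream Runx1 window held 0 matches of any of the motifs. The first Gata2 window held 0 matches and the second held 1 E-box match. Of the Erg windows the upstream one held 0 matches, the middle one 1 ETS match and the downstream one 1 match each of E-box, GATA and ETS. Runx1 is known to be transcribed from a distal and a proximal promoter. The upstream window was the only one of the 14 with a RUNX match, a motif found in 16.8% of 32851 windows of this length. A looser form, TGNGGT, was searched before it and set aside after its matches were seen, and it was found in 6 of the 14 windows against 45.8% of all. GATA matches were found in 3 of the 14 windows, 1 each of Tal1, Erg and Ldb1, against 11.2% of all windows. E-box matches were found in 6 of the 14 against 51.4% of all windows, and ETS matches in 8 against 71.4%. These are matches of letters and say nothing of whether a factor binds there, and the files do not tie any probe set to a start.

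The arrays were close in overall level. Their median log2 intensity was between 4.12 and 4.18, and between 33.3% and 34.5% of probe sets reached a log2 intensity of 6. WT replicate 1 stood furthest apart, with an SD of 0.30 for the deviations of bright genes from their own means, where the other arrays had 0.20 to 0.22. Only 2 of the 9 members were above their own mean on that array. WT replicate 3 was closer to the Apcmin arrays, with median absolute log2 differences of 0.19, 0.20 and 0.22 over all probe sets. From WT replicates 1 and 2 it differed by 0.34 and 0.29. Kit, which encodes the c-Kit receptor used in the sort, averaged 9.87 in Apcmin and 9.79 in WT, while the gene of Sca-1 was not analysed here. Among other genes of stem and progenitor cells, Cd34 averaged 10.94 in both groups, and Slamf1 averaged 5.91 in Apcmin and 6.13 in WT.

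Among the helix-loop-helix factors, Tal1 is needed to form blood stem cells in the embryo. Its single probe set had log2 intensities of 9.15, 8.84 and 9.29 in Apcmin, against 8.92, 9.01 and 9.12 in WT. The Apcmin arrays held both the highest and the lowest Tal1 value, so the groups overlapped. The means were 9.09 ± 0.23 in Apcmin and 9.01 ± 0.10 in WT (SD, n = 3 each), a difference of 0.08 with a 95% interval from -0.32 to 0.48 (limma, adjusted p = 0.968). Lyl1, its close relative that can take over part of its role in adult stem cells, had 9.41, 9.53 and 9.43 in Apcmin, against 9.23, 9.50 and 9.69 in WT. All Apcmin values of Lyl1 lay inside the WT range. Its means were 9.46 ± 0.07 in Apcmin and 9.47 ± 0.23 in WT, a difference of -0.02 (interval -0.41 to 0.37).

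Lmo2, the bridging protein, was the steadiest member. It had 11.60, 11.53 and 11.46 in Apcmin, against 11.53, 11.42 and 11.50 in WT, a range of 0.18 over all 6 arrays. Its difference was 0.04 with a standard error of 0.13 and an interval from -0.27 to 0.36, whose upper end is a 1.28-fold higher level in Apcmin. Ldb1, its partner, had 8.57, 8.78 and 8.78 in Apcmin, against 8.99, 9.12 and 8.63 in WT. WT replicates 1 and 2 were above every Apcmin array, and WT replicate 3 was lower than Apcmin replicates 2 and 3. The Ldb1 means were 8.71 ± 0.12 in Apcmin and 8.91 ± 0.25 in WT, a difference of -0.20 that did not pass (interval -0.62 to 0.22, limma, adjusted p = 0.954).

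Gata2, a zinc finger factor that maintains stem and progenitor cells and is also used in mast cells, was covered by 2 probe sets. The brightest had 10.59, 10.61 and 10.70 in Apcmin, against 10.45, 10.59 and 10.61 in WT, a difference of 0.09 (interval -0.23 to 0.41). The lowest of these values was on WT replicate 1, and WT replicate 2 (10.586) was just below the lowest Apcmin array (10.592). WT replicate 3 lay inside the Apcmin range, and Apcmin replicate 3 was above every WT array. The dimmer Gata2 probe set had 9.44, 9.61 and 9.92 in Apcmin, against 9.81, 9.90 and 9.63 in WT, a difference of -0.12 (interval -0.54 to 0.30). The Gata2 probe sets therefore had opposite signs, both within their error. The summed linear intensity of 6 mast cell and basophil markers was lowest on WT replicate 1. It ranged from 303 to 372 in Apcmin and from 173 to 394 in WT. Only 2 of the 6 were bright, Cpa3 and Mcpt8. The brightest, Mcpt8, is a basophil protease, and its lowest value was also on WT replicate 1 (6.51). On WT replicate 1 Cpa3, a mast cell protease, was at 5.63, against 6.30 or more on the others, while Hdc, the histamine-forming enzyme, was highest there (8.07). The brightest Gata2 probe set was lowest on that array, but the dimmer one was at 9.81 there and was lowest on Apcmin replicate 1. The part of mast cell or basophil transcripts in the Gata2 values was not tested.

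**Figure D1:**
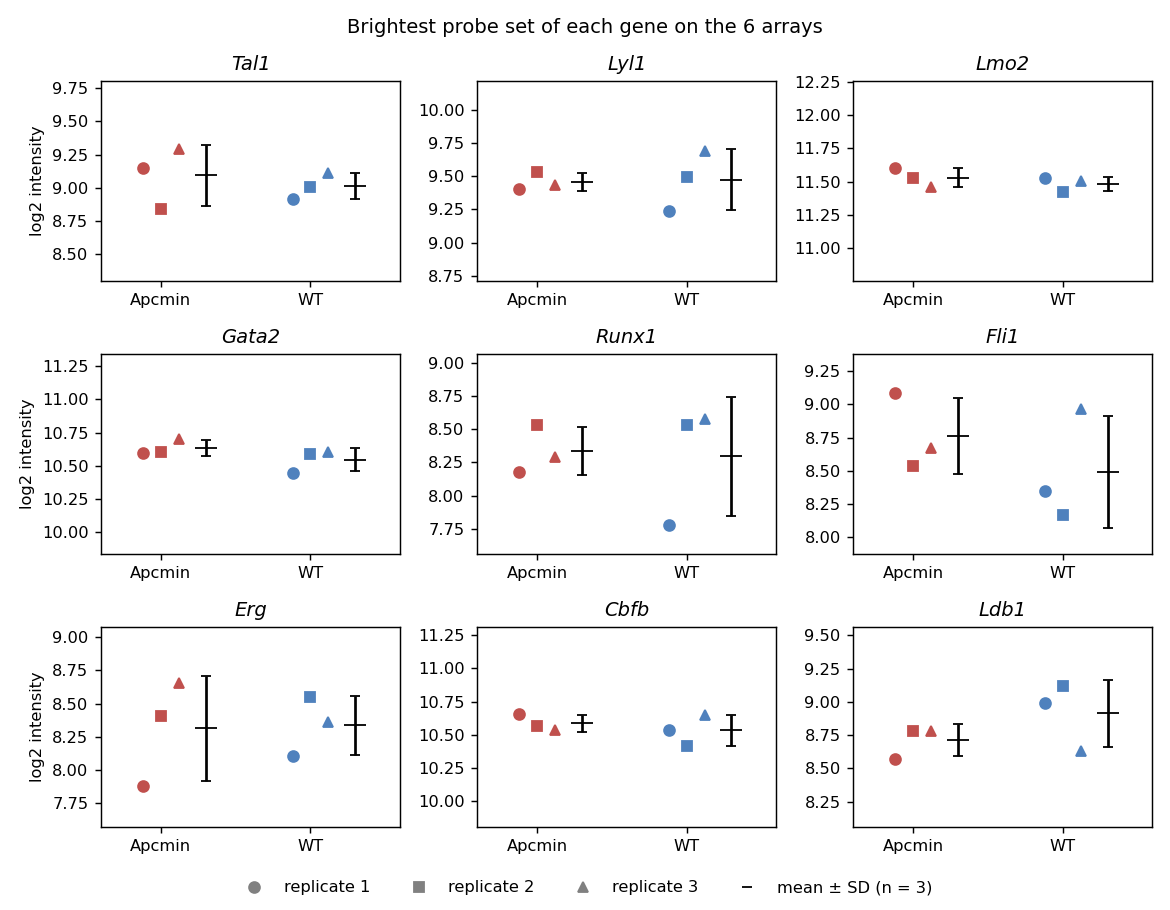
Log2 intensity of the brightest probe set of each of the 9 genes on the 3 Apcmin arrays (red) and the 3 WT arrays (blue), with the replicate as marker shape and the mean and SD in black. Every panel spans the same log2 range: Lmo2, Gata2 and Cbfb vary little, while Runx1, Fli1 and Erg vary by 0.77 to 0.92 over the 6 arrays, and the groups overlap in all panels.

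Runx1, which is required for blood stem cells to emerge and is often mutated in human myeloid disease, was measured by 6 probe sets. The brightest had 8.18, 8.53 and 8.29 in Apcmin, against 7.78, 8.53 and 8.58 in WT. WT replicate 1 was below every other array, and WT replicate 3 was above them. The means were 8.33 ± 0.18 in Apcmin and 8.29 ± 0.45 in WT, a difference of 0.04 (interval -0.55 to 0.63, limma, adjusted p = 0.990). Without WT replicate 1 the difference was -0.22, with the sign turned. The second brightest Runx1 probe set had 7.99, 8.08 and 8.11 in Apcmin, against 8.29, 8.28 and 8.15 in WT.
Here each Apcmin value lay below each WT value, by a mean of 0.18 (interval -0.50 to 0.14, limma, adjusted p = 0.954). The SDs were 0.06 in Apcmin and 0.08 in WT, while the standard error of 0.13 was widened by the variance of all probe sets. This probe set was 1 of 17 member probe sets whose groups did not overlap, against 7.77% of the 34945 single-symbol probe sets, which is near the background. The next one differed by -0.01 and the others, in order of brightness, by -0.21, -0.30 and 0.17, so 2 of the 6 Runx1 probe sets had a higher mean in Apcmin and 4 a lower one. The dimmest had means of 4.28 in Apcmin and 4.11 in WT, close to the median of all probe sets on an array.

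Cbfb, which has no DNA contact of its own, had 10.66, 10.57 and 10.54 in Apcmin, against 10.54, 10.42 and 10.65 in WT. The range was 0.24 over the 6 arrays and the groups overlapped. Its difference was 0.05 with a standard error of 0.14 (interval -0.28 to 0.38, limma, adjusted p = 0.975).

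**Figure D2:**
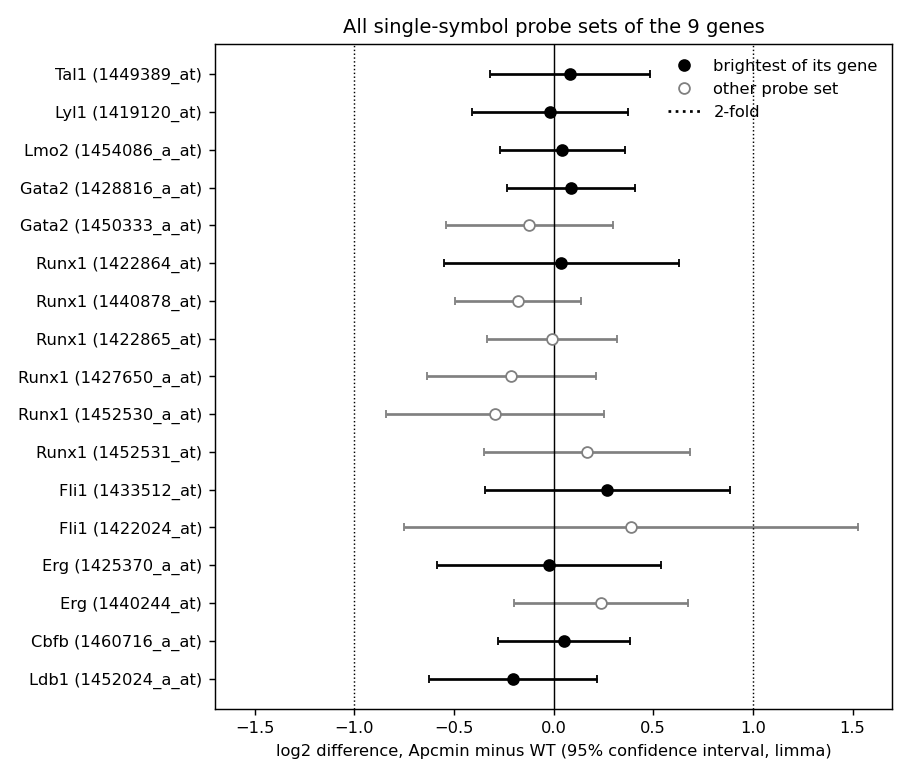
Log2 difference, Apcmin minus WT, with its 95% confidence interval (limma) for all 17 probe sets, grouped by gene. Filled points are the brightest probe set of a gene and dotted lines mark 2-fold. All intervals include 0, and 16 of 17 lie within 2-fold, the exception being the dimmer Fli1 probe set.

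Fli1, an ETS factor of stem cells, megakaryocytes and endothelium, varied most among the members. Its brightest probe set had 9.09, 8.53 and 8.67 in Apcmin, against 8.35, 8.17 and 8.97 in WT. Apcmin replicate 1 and WT replicate 3 were the high arrays, and WT replicates 1 and 2 were below every Apcmin array. The means were 8.76 ± 0.29 in Apcmin and 8.49 ± 0.42 in WT, a 1.20-fold difference that did not pass (log2 difference 0.27, interval -0.35 to 0.88, limma, adjusted p = 0.954). Leaving out 1 array moved this difference to values between 0.11, without WT replicate 2 or Apcmin replicate 1, and 0.51, without WT replicate 3. The upper end of the interval then went past 2-fold in 3 cases, at 1.04 without WT replicate 3, at 1.11 when Apcmin replicate 2 was dropped and at 1.08 when Apcmin replicate 3 was. The dimmer Fli1 probe set had 6.34, 5.82 and 6.15 in Apcmin, against 4.72, 5.70 and 6.74 in WT, a difference of 0.39 with a wide interval from -0.75 to 1.53. Its sign was that of the brighter one, and its 3 Apcmin values lay within the WT range.

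Erg, the closest relative of Fli1 among the members and a factor needed for adult stem cell maintenance, was measured by 2 probe sets of opposite sign. The brightest had 7.88, 8.41 and 8.65 in Apcmin, against 8.11, 8.55 and 8.36 in WT, a difference of -0.02 (interval -0.59 to 0.54). Apcmin replicate 1 was the lowest and Apcmin replicate 3 the highest of the 6 arrays. The dimmer Erg probe set had 7.77, 7.41 and 7.50 in Apcmin, against 7.53, 7.06 and 7.37 in WT, a difference of 0.24 (interval -0.20 to 0.67, limma, adjusted p = 0.954). Apcmin replicate 1, lowest on the first, was highest on this one. Among the 4 genes with several probe sets, 2 of the 8 other probe sets had the sign of the brightest of their gene.

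On single arrays the members could deviate in opposite directions. The deviations of Fli1 from its own mean were 0.46 on Apcmin replicate 1 and -0.46 on WT replicate 2. Those of the brightest Erg probe set on the same arrays were -0.44 and 0.22. The dimmer Erg probe set instead had its highest value on Apcmin replicate 1 (7.77) and its lowest on WT replicate 2 (7.06). The brightest Fli1 probe set had its highest and lowest values on those same arrays. For the brightest probe sets, the root mean square distance between the centred profiles of these paralogues was 0.50 on the log2 scale. This was the second largest of all member pairs, after Fli1 and Ldb1 at 0.51. The smallest was 0.05, between Lmo2 and Cbfb, both of which varied little. Among 8657 other bright genes, the profiles nearest to Fli1 over the 6 arrays were those of Clpx (distance 0.04), a mitochondrial unfoldase subunit, Tnfsf10 (0.06), a death receptor ligand, and 2810408B13Rik (0.06). These were picked as the nearest profiles, so their closeness is a description, and all share the same 6 libraries.

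**Figure D3:**
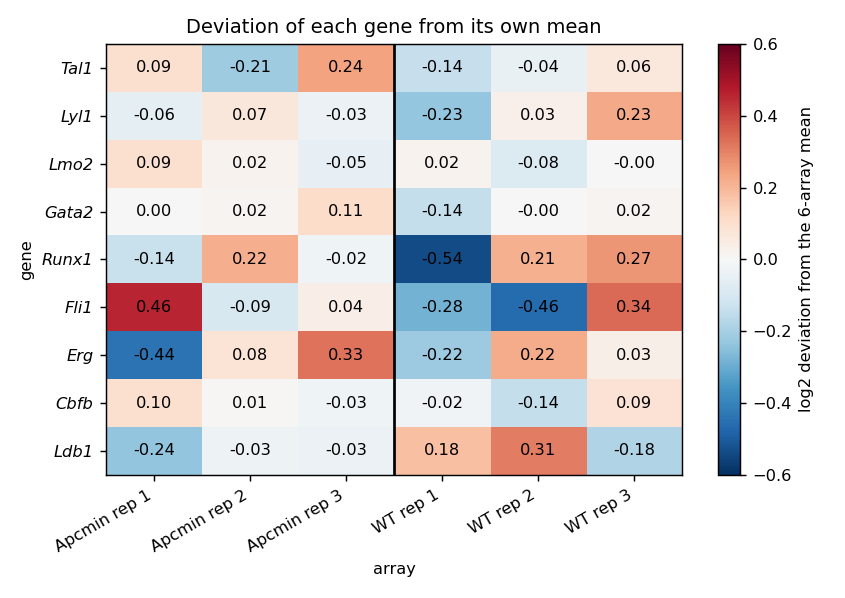
Deviation of each gene (rows) from its own mean over the 6 arrays (columns), in log2 units, red above and blue below the mean. Each gene is shown by its brightest probe set. Fli1 is high and Erg low on Apcmin replicate 1, where the dimmer Erg probe set, not shown, was highest. On WT replicate 1, 7 of the 9 genes are below their mean.

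**Figure D4:**
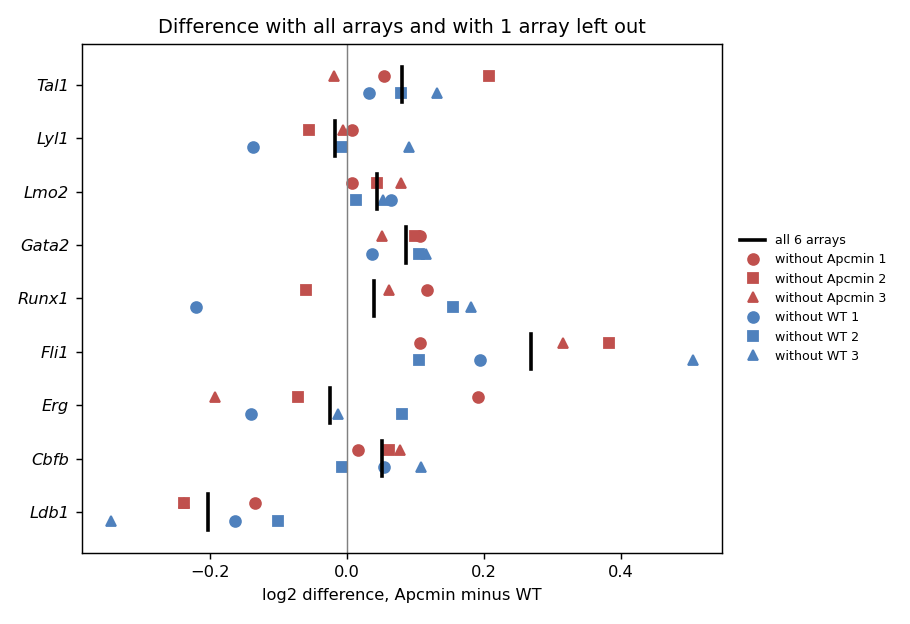
Log2 difference, Apcmin minus WT, of the brightest probe set of each gene with all 6 arrays (black bar) and with 1 array left out (red symbols for an Apcmin array, blue for a WT array). Tal1, Lyl1, Runx1, Erg and Cbfb lie on both sides of 0 depending on the array, while Lmo2, Gata2, Fli1 and Ldb1 keep their sign.

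The median difference of the 9 genes was 0.04. The median over all genes was -0.04, and over bright genes, which include all 9 members, it was 0.02. A higher mean in Apcmin was found in 6 of 9 members, against 43% of all genes and 56.3% of bright genes. With 1 array left out, between 5 of 9 (when WT replicate 1 or either of Apcmin replicates 2 and 3 was dropped) and 8 of 9 (without Apcmin replicate 1) had a higher mean, and the median was between 0.03, without WT replicate 1, and 0.11, without WT replicate 3 (0.08 without WT replicate 2). The median without regard to sign was 0.05 for the members and 0.11 for bright genes.

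The known protein partners of the heptad were described as a list of 16 genes, all of them measured. In it, 0 genes passed at an adjusted p of 0.05 in either direction, the mean was higher in Apcmin for 13 and lower for 3, and the median difference was 0.09. Of the 16 genes 15 were bright, and 56.3% of all bright genes had a higher mean in Apcmin. Without WT replicate 1, 9 of 16 had a higher mean and the median was 0.02. After further quantile normalization these were 11 of 16 and 0.06. Tcf3, which encodes the E proteins E12 and E47 that pair with Tal1 and Lyl1, had 7.95, 7.82 and 7.74 in Apcmin, against 7.36, 7.63 and 7.80 in WT (difference 0.24, limma, adjusted p = 0.954). WT replicate 3 lay inside the Apcmin range of Tcf3 and the other WT arrays below it. The other 2 probe sets of Tcf3 were split, 1 sharing its sign. Tcf12, another E protein gene, differed by 0.14, and Sin3a, a corepressor scaffold, by 0.17, and all their other probe sets (4 and 2) had the same sign. On the lower side were Ssbp4 (-0.18), whose protein family stabilizes Ldb1, and, near 0, the corepressor subunit Rcor1 and the acetyltransferase Crebbp (both -0.02). The other probe sets shared the sign in 2 of 2 for Rcor1 and 0 of 3 for Crebbp.

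Of 10 family relatives of the members, 8 were analysed here, 0 passed in either direction, and the mean was higher in Apcmin for 4 and lower for 4. Their median difference of 0.08 turned to -0.05 without WT replicate 3, and it was 0.02 when Apcmin replicate 1 was dropped and 0.05 when WT replicate 1 was. Only Lmo4, Gata1 and Runx3 were bright by the limit of 6. Lmo4, a LIM-only relative of Lmo2, had 7.59, 7.30 and 7.62 in Apcmin, against 6.20, 7.69 and 7.39 in WT. Its difference of 0.41 came with 1 low array, WT replicate 1, and the other WT values overlapped those of Apcmin. Runx3 averaged 8.18 ± 0.03 in Apcmin and 8.01 ± 0.39 in WT, and its other probe set had the opposite sign. Gata1, which replaces Gata2 on shared sites as erythroid cells mature, had 7.97, 7.03 and 8.14 in Apcmin, against 8.12, 7.48 and 7.01 in WT. Gata1 was low on Apcmin replicate 2 and WT replicate 3, the arrays with the lowest levels of Klf1, an erythroid factor, at 7.06 and 7.16. The summed intensity of the 6 measured erythroid markers ranged from 1448 to 3338 in Apcmin and from 1341 to 2936 in WT. Most of that sum came from 1 marker, Car1, whose log2 intensity was between 10.08 and 11.34, while Hba-a1 was at or below 2.56 on every array. The part of erythroid progenitors in the Gata1 values was not tested, and in sorted bulk cells fewer cells of a type and less RNA per cell cannot be told apart.

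Genes known as targets of 1 or more of the factors formed a further list. Of 22 listed targets 21 were analysed here, 0 passed in either direction, and the Apcmin mean was the higher one for 10 and the lower one for 11. The median difference was -0.022, and it was between -0.050, without Apcmin replicate 2, and -0.0034, without WT replicate 3. Dropping Apcmin replicate 1 gave -0.035, dropping Apcmin replicate 3 gave -0.014 and dropping WT replicate 2 gave -0.037. Among the 15 bright targets the median was 0.0010, with a higher mean in Apcmin for 8 and a lower one for 7. Tek, the angiopoietin receptor of stem and endothelial cells, had 7.23, 6.79 and 6.80 in Apcmin, against 7.15, 7.39 and 7.43 in WT, the largest difference of the list in either direction (-0.38, limma, adjusted p = 0.954). Apcmin replicate 1 overlapped the WT values and the other Apcmin arrays lay below them. Of 6 endothelial markers 4 had a lower mean in Apcmin, where 43% of all genes and 56.3% of bright genes had a higher one. The summed intensity of the 6 markers ranged from 436 to 514 in Apcmin and from 452 to 566 in WT. Cdh5, the endothelial cadherin, was at or below 2.35 on every array, but 3 of the 6 markers were bright. Of these, Tie1 differed by -0.20, Pecam1 by -0.30 and Emcn by 0.10. Hdc, the histamine-forming enzyme, differed by -0.20 and Csf1r, the macrophage growth factor receptor, by -0.18. Among targets with a higher mean in Apcmin were Cpa3 (0.31), Zfpm1 (0.16), a cofactor of GATA proteins, and Eng (0.09), a TGF-beta coreceptor. The other probe set of Zfpm1 and that of Eng had the opposite sign, that of Hdc the same sign, and of the 2 others of Csf1r 1 had the same sign.

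**Figure D5:**
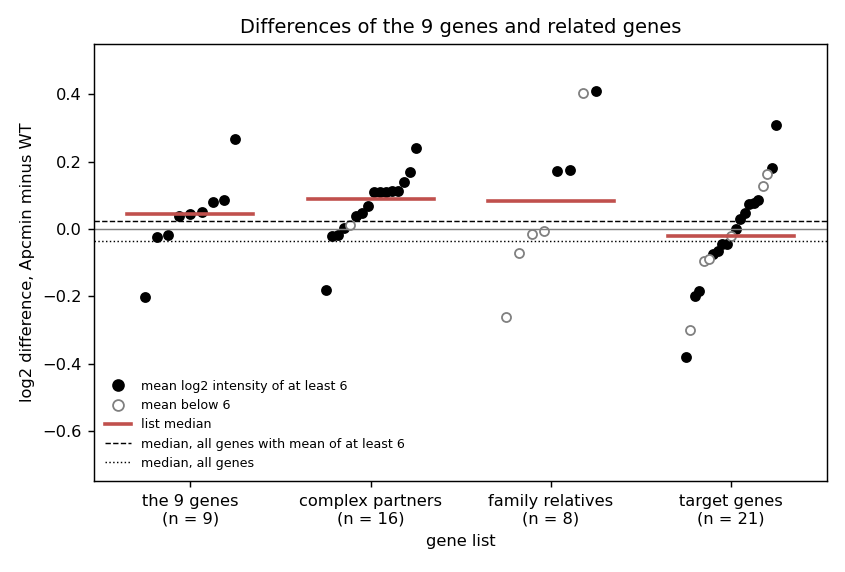
Log2 difference, Apcmin minus WT, of the brightest probe set of each of the 9 genes, 16 complex partners, 8 family relatives and 21 target genes. Filled points are bright genes (mean of 6 or more), red bars are list medians, and the dashed and dotted lines are the medians of bright genes (0.02) and of all genes (-0.04). The list medians lie between -0.02 and 0.09 with all 6 arrays, that of the family relatives turning to -0.05 without WT replicate 3, and no gene shown passed.

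Markers of other cells were read beside these values, although the lineage-negative sort is meant to remove lymphoid and mature myeloid cells, and a low intensity does not show that a transcript was present. As background to the counts, a higher mean in Apcmin was found in 43% of all genes and 56.3% of bright genes. Genes that were not bright were thus lower in Apcmin more often than genes at large. Lymphoid markers had a lower mean in Apcmin in 5 of 5 genes, with a median difference of -0.56, and 4 of these were dim, with Cd3d at 2.52 in Apcmin and 3.23 in WT. Of 6 mature myeloid markers 5 had a lower mean in Apcmin, the exception being Ltf (difference 0.13). The largest difference was that of Cd14, with 3.36, 2.77 and 3.79 in Apcmin, against 4.90, 4.31 and 3.79 in WT (-1.02, limma, adjusted p = 0.954). Every Apcmin array of Cd14 was below every WT array, Apcmin replicate 3 and WT replicate 3 by less than 0.01. Itgam, a defining surface marker, was at 2.64 in Apcmin and 2.75 in WT, while S100a8 was bright in both groups (11.34 in Apcmin and 11.38 in WT). Of 5 measured megakaryocyte markers 4 had a lower mean in Apcmin, with Pf4 at 7.80 in Apcmin and 8.16 in WT. Their part in the values of the 9 genes was not tested.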

How the data were processed

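For each array the authors deposited linear normalized intensity values, 1 per probe set. Per the submitters' processing notes they used RMA, whose version and settings the sources used here do not give. Log2 was taken with no pseudocount. Of 45101 probe sets 64 controls were left out. A single symbol was given for 34945 of the rest, while 932 had several and 9160 had none, and 34741 matched a RefSeq entry (GRCm38.p6) by Entrez identifier, with 0 symbols changed. The genotypes were compared in R 4.3.3 with lmFit and eBayes of limma 3.58.1, without covariates, over all 45037 probe sets, with Benjamini-Hochberg adjustment and a threshold of 0.05. The limma step was tested on simulated data with independent noise. The changes added there were larger than any member difference, so that test says nothing about finding differences of the members' size. Precision is limited by the number of arrays, and the median 95% half-width of a log2 difference was 0.40 for the 9 genes. A low intensity carries no detection call. From each related list the rule named up to 3 genes per direction with the smallest p and a mean of at least 6 in the higher group, and the 3 profiles nearest to the most variable member; marker genes, and Klf1, Kit and Cd34, are given as values beside a result. Members and lists were chosen with earlier results of these data known, and the promoter motifs after the values were seen. Alternatives were a replicate block, further normalization, array weights, a mean-variance trend, a filter, a floor, other probe sets and leaving out each array.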

Additional observations from a re-analysis of the deposited data

How the results depend on the processing

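No probe set passed under any alternative run, the replicate block included (0 called, with 1398 at an unadjusted p under 0.05 against 1714 without the block). That unadjusted count was 5864 without WT replicate 3, 2717 with array weights and 911 with a floor at 4, each of 45037 probe sets. Among probe sets with a mean of at least 6 it was 486, but of only 15155 tested. Without WT replicate 3 the smallest adjusted p of any probe set was 0.333 (limma), against 0.954 with all 6 arrays. Deviations of same-numbered arrays from their group means correlated at 0.05, -0.05 and -0.25 over 15155 bright probe sets, so the numbers were not taken as pairs. The median difference of the 9 genes was between 0.03 and 0.11 with 1 array left out, and between 0.03 and 0.06 under the other alternatives. Leaving out 1 array turned the sign of Tal1 (-0.019 to 0.21), Lyl1 (-0.14 to 0.092), Runx1 (-0.22 to 0.18), Erg (-0.19 to 0.19) and Cbfb (-0.0070 to 0.11). With the mean of all probe sets Gata2 was at -0.017, Runx1 at -0.082 and Erg at 0.11. With the second brightest probe set Gata2 was at -0.12, Runx1 at -0.18 and Erg at 0.24. With the floor at 4, 8 of the 9 intervals stayed within 2-fold. Array weights put Runx1 at -0.019. The cause of these changes of sign was not tested, and no member passed in any of them.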

Other observations

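Ratios between partner genes within an array were computed after the values were seen, and carry no test. The log2 ratio of the Lmo2 to the Ldb1 probe set was 3.03, 2.75 and 2.68 in Apcmin, against 2.53, 2.31 and 2.87 in WT. WT replicate 3 lay inside the Apcmin range and the other WT arrays below it, and the means were 2.82 ± 0.18 in Apcmin and 2.57 ± 0.29 in WT (SD, n = 3 each). The ratio of Fli1 to Erg was 1.20, 0.13 and 0.02 in Apcmin, against 0.24, -0.38 and 0.61 in WT, with an SD of 0.66 in Apcmin and 0.50 in WT and a difference between the means of 0.29. It used the brightest Erg probe set, which was lowest on Apcmin replicate 1, where the dimmer Erg probe set was highest. The ratio of Tal1 to Lyl1 differed by 0.10 and that of Runx1 to Cbfb by -0.01, with overlapping groups in both. These ratios compare arrays and do not give the amounts of the 2 transcripts relative to each other.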
